A study of Mus musculus with 64 samples.

Results

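The scavenger receptors described here are 10 genes of bone marrow-derived macrophages (BMMs), namely Marco, Msr1, Cd36, Mrc1, Scarb1, Scarb2, Stab1, Olr1, Cd68 and Cd14. They were chosen by name from 55487 listed genes, and all 10 of 10 passed the filter on low counts that left 14537 genes. RNA was sequenced in 64 libraries, 4 in each of 16 groups given by genotype, time point and treatment. BMMs came from female Ahr+/+ C57BL/6JRj mice and from Ahr-/- mice, a C57BL/6 line with a deletion in the gene of the aryl hydrocarbon receptor (AhR) that had been crossed back to C57BL/6JRj, with 4 mice per genotype at 8 to 12 weeks of age. Each library is a bulk sample, the labels do not say which mouse it came from, and p-values therefore measure the spread between these samples. Marrow cells of both genotypes were grown to day 6 in medium conditioned by L929 cells, a source of macrophage colony-stimulating factor. All BMMs were then kept for 6 h with 0.01% DMSO as the vehicle, with 1 µM benzo[a]pyrene (BaP) or with 10 µM indole-3-carbinol (I3C), the latter a low-affinity and the former a high-affinity ligand of AhR. Activation followed for 3 h or 20 h with 10000000 bacteria per ml of Salmonella enterica Serovar Enteritidis killed by heat (hk S.E.), which engage several pattern recognition receptors. In each genotype and at each time point 1 further group received DMSO and no hk S.E., and is called unactivated. No group received a ligand without hk S.E., so that ligand effects were measured in activated cells alone.

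Scavenger receptors are surface and vesicular proteins that bind modified lipoproteins, apoptotic cells, microbial surfaces and other polyanionic ligands, and deliver many of them to endosomes. MARCO and the product of Msr1 are trimeric class A receptors with a collagen-like stalk, CD36 and the products of Scarb1 and Scarb2 are class B proteins with a large loop outside the membrane, and LOX-1, the product of Olr1, is a C-type lectin-like receptor for oxidized LDL. The mannose receptor (Mrc1) and stabilin-1 (Stab1) clear glycoproteins and matrix fragments and are commonly read as marks of alternatively activated macrophages. CD68 is a heavily glycosylated protein of late endosomes and lysosomes. CD14 is a surface-anchored protein that hands lipopolysaccharide to TLR4 and MD-2.

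Libraries held 12152496 to 50644601 counts on genes, except for 1 of the unactivated Ahr+/+ libraries at 20 h, which held 233047331. Levels are given as CPM, the usual library-size unit of RNA-seq, with libraries scaled by their TMM factors. Unless stated otherwise, fold changes, standard errors (SE) and adjusted p-values are those of the quasi-likelihood test of edgeR on all 64 libraries, and a gene was called at an adjusted p below 0.01. Ahr itself gave 6.67 to 30.1 CPM of the unscaled library size in libraries labelled Ahr-/- and 1.35 to 15.1 in those labelled Ahr+/+, and counts summed over a gene do not show which of its exons are present. Ahrr, a target gene of AhR looked up after the data were seen, gave 17.3 to 20.6 CPM of the same kind in Ahr+/+ BMMs after BaP and 20 h of hk S.E. against 4.51 to 6.20 after DMSO, whereas the Ahr-/- libraries gave 0.698 to 1.26 and 0.672 to 0.869. The 7 macrophage markers looked at, Adgre1, Itgam, Csf1r, Fcgr1, Ptprc, Lyz2 and Mertk, were detected in every library and summed to 17153 to 31598 CPM. The 8 neutrophil markers summed to 12.7 to 65.9 CPM in unactivated and 18.1 to 273 CPM in activated libraries. S100a8, S100a9, Ngp, Ltf and Camp reached up to 73.0, 111, 56.4, 27.7 and 5.29 CPM. Ly6g, Mpo and Elane reached at most 6, 6 and 13 counts in any library. The 5 dendritic cell markers summed to at most 2.46 CPM, the 4 T cell markers to 2.67, the 3 B cell markers to 0.984 and the 3 fibroblast markers to 7.88. The part of these markers in the results was not tested. In bulk RNA, fewer cells of a type and less RNA per cell cannot be told apart. Among activated Ahr-/- libraries, replicates 1 and 2 stood apart from replicates 3 and 4 along the first component of the variation within groups, which held 39.8% of that variation at 3 h and 59% at 20 h. In activated Ahr+/+ libraries at 20 h the same numbers lay apart on a first component of 21.3%. Comparisons of the genotypes are therefore also given with replicates 1 and 2 or 3 and 4 of Ahr-/- alone, a choice made after the data were seen.

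**Figure D1:**
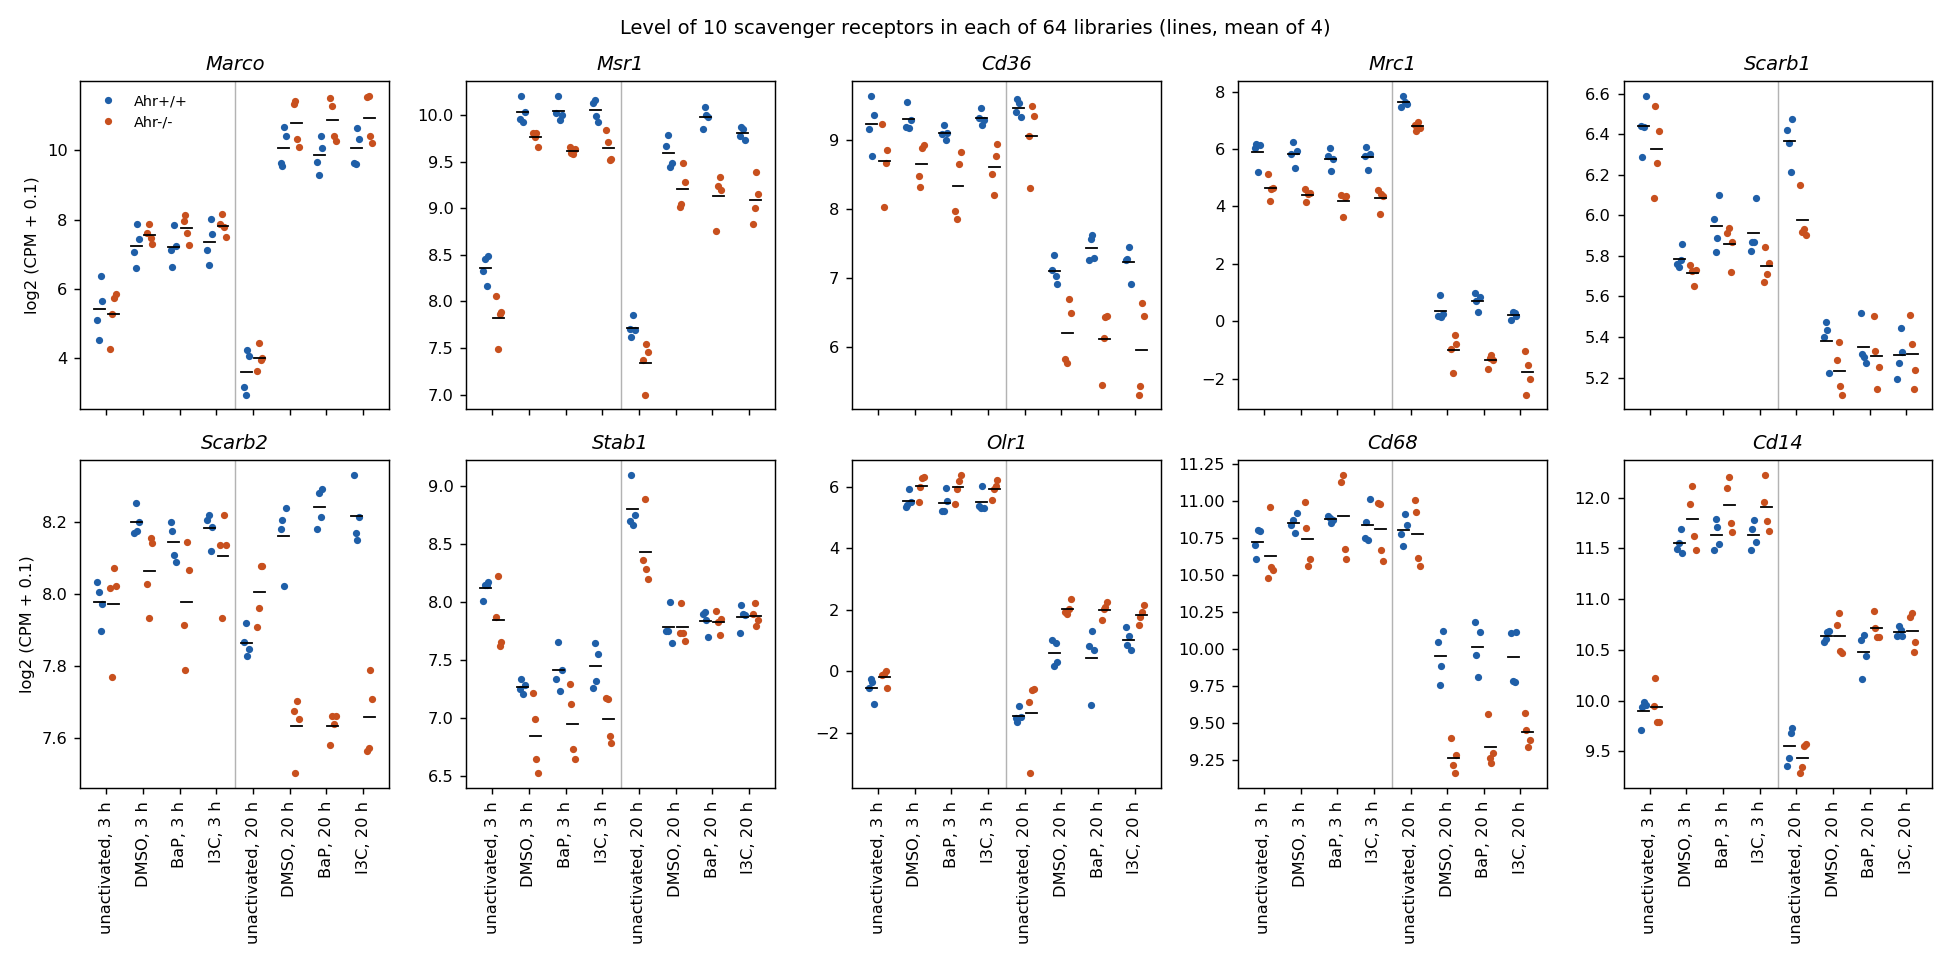
Level of each of the 10 scavenger receptors as log2 (CPM + 0.1) in the 64 libraries, with Ahr+/+ in blue, Ahr-/- in orange and a black line at the mean of 4 libraries, by treatment and time point. Marco, Msr1, Olr1 and Cd14 were higher in all hk S.E.-activated groups than in unactivated groups of the same time point. Mrc1 and Cd36 were lower in all activated groups than in unactivated groups at 20 h.

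Per kilobase of exon, which allows genes to be compared, Cd68 and Cd14 were the most abundant of the 10 in unactivated cells. In unactivated Ahr+/+ BMMs at 3 h, Cd68 had a mean of 1351 CPM per kb, Cd14 551, Cd36 172, Msr1 51.8, Scarb2 40.1, Stab1 27.0, Marco 24.7, Scarb1 10.2, Mrc1 9.64 and Olr1 0.167. After 20 h of hk S.E. the order in Ahr+/+ cells was Cd14 at 918, Cd68 at 792, Marco at 590, Msr1 at 123, Scarb2 at 45.6, Cd36 at 38.3, Stab1 at 21.5, Scarb1 at 4.91, Olr1 at 0.410 and Mrc1 at 0.193 CPM per kb. Between these groups, which differ in both time and hk S.E., Marco moved from the seventh to the third place and Mrc1 to the last. In unactivated Ahr+/+ BMMs at 20 h, Marco was at 6.75 and Mrc1 at 31.2 CPM per kb, below and above their values at 3 h. After 20 h in Ahr-/- BMMs Marco had the highest mean of the 10, with 1000 CPM per kb against 928 for Cd14, and ranges of 571 to 1416 and 819 to 1072 CPM per kb that overlapped.

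**Figure D2:**
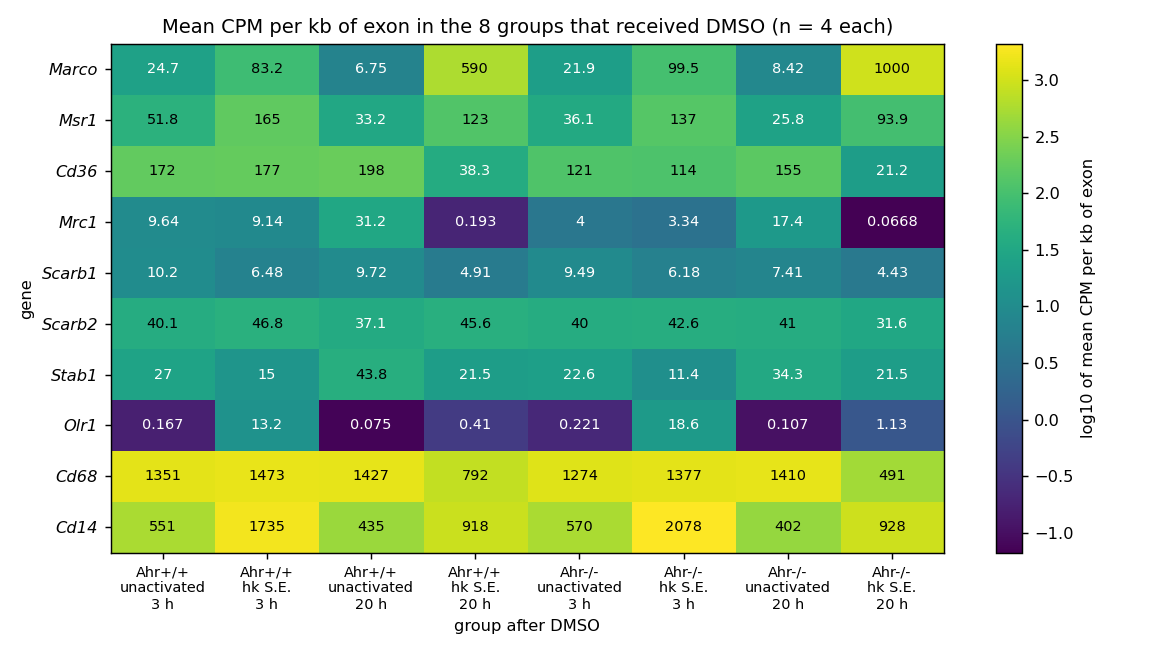
Mean CPM per kb of exon of the 10 genes in the 8 groups that received DMSO, 4 libraries each, coloured on a log10 scale with the mean printed in each cell. The values span from 0.0668 for Mrc1 after 20 h of hk S.E. in Ahr-/- cells to 2078 for Cd14 after 3 h of hk S.E. in Ahr-/- cells.

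Over the 16 groups, Mrc1 varied most in relative terms, with group means from 0.214 to 199 CPM, a ratio of 931. Olr1 followed with 0.268 to 66.4 CPM, a ratio of 248, and Marco with 13 to 2145 CPM, a ratio of 165. The other 7 genes varied less, by ratios from 1.53 for Scarb2 over 2.31 for Scarb1 to 10.6 for Cd36. When the 16 groups were ordered by mean, the libraries of 10 to 14 of the 15 neighbouring pairs overlapped for each gene, so that the orders hold for blocks of groups and not for neighbours. For Mrc1, the 5 gaps without overlap lay below unactivated Ahr+/+ at 20 h, below unactivated Ahr-/- at 20 h, between the Ahr+/+ and Ahr-/- groups at 3 h, between the 3 h and the activated 20 h groups, and between the Ahr+/+ and Ahr-/- activated groups at 20 h.

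The first comparison asked how hk S.E. changed these receptors after DMSO. Marco, Msr1, Olr1 and Cd14 rose in both genotypes at both time points, Scarb1 and Stab1 fell in all 4 comparisons, and Cd36, Mrc1 and Cd68 fell at 20 h. At 3 h in Ahr+/+ BMMs 5 of 10 were called higher and 2 lower, where 24.2% of all genes tested were called higher and 32.3% lower. The counts at 3 h in Ahr-/- BMMs were 4 and 2, against 25.5% and 31.8% of all genes. At 20 h the counts were 5 higher and 5 lower in Ahr+/+ BMMs (29.9% and 28.7% of all genes) and 4 higher and 6 lower in Ahr-/- BMMs (28.3% and 26% of all genes). The median log2 fold change of the 10 was 0.17, -0.27, 0.10 and -0.52, in the order Ahr+/+ at 3 h and 20 h and Ahr-/- at 3 h and 20 h, beside medians of -0.10, -0.00, -0.08 and 0.02 over all genes tested. The TMM factors differed with activation. Scaling to library size alone moved the median of all genes by -0.67 at 3 h in both genotypes and by -0.37 and -0.31 at 20 h, and then called 4 members higher and 5 lower in Ahr+/+ and 4 and 6 in Ahr-/- BMMs at 3 h, with 12.4% and 59.1% of all genes in Ahr+/+ and 12.8% and 59% in Ahr-/- BMMs. At 20 h this scaling called 4 higher and 5 lower in Ahr+/+ and 4 and 6 in Ahr-/- BMMs, with 18.3% and 43.8%, and 17.7% and 38.6%, of all genes.

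**Figure D3:**
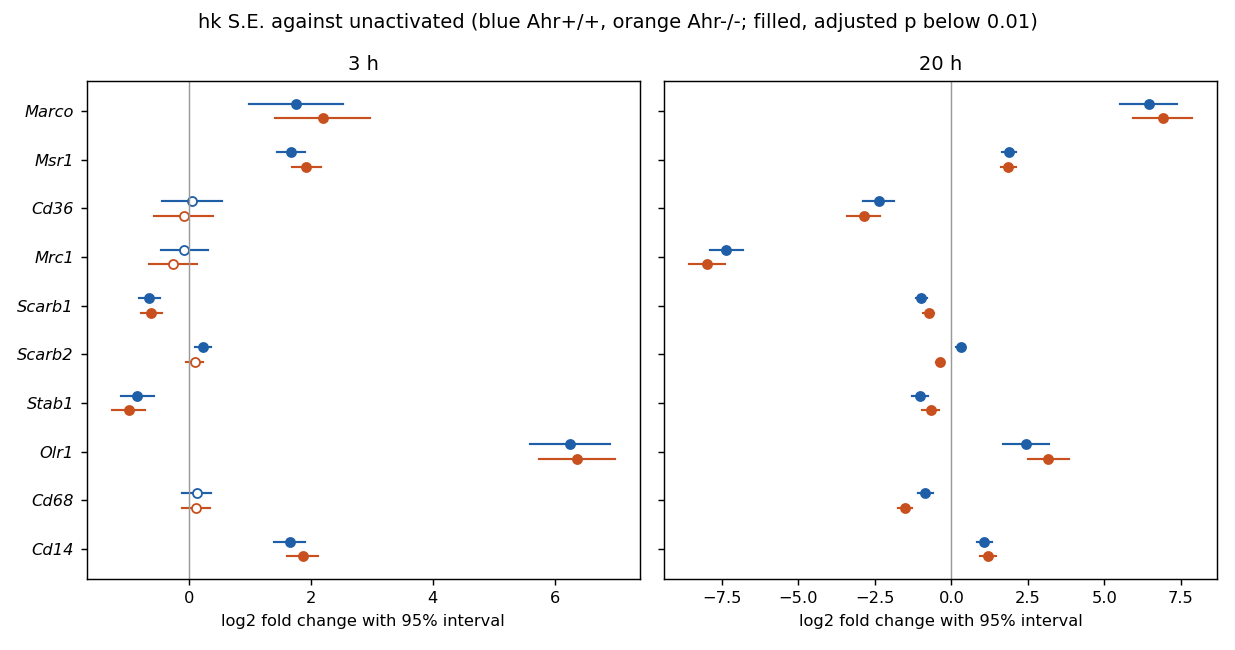
Log2 fold change of each gene with hk S.E. against unactivated cells at 3 h and 20 h, with bars for the 95% interval from the SE, Ahr+/+ in blue and Ahr-/- in orange, filled where the adjusted p was below 0.01. Olr1 had the largest value at 3 h (6.25 and 6.37), and at 20 h Marco (6.44 and 6.90) and Mrc1 (-7.35 and -7.98) lay at opposite ends.

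Marco (ENSMUSG00000026390.7, chromosome 1, 120474538 to 120505024, minus strand, GRCm38) is a class A receptor for bacteria and particles. Unactivated Ahr+/+ BMMs had 34.1, 22.8, 83.1 and 50.5 CPM at 3 h and 8.89, 7.64, 18.8 and 16.7 CPM at 20 h. With hk S.E. these cells had 134, 97.1, 235 and 174 CPM at 3 h and 795, 752, 1640 and 1356 CPM at 20 h. All activated libraries lay above all unactivated libraries of the same time point, and replicates 3 and 4 were the highest of their groups throughout in this genotype. The rise was 3.37-fold at 3 h (log2 1.75, SE 0.38, adjusted p = 7.32e-05) and 86.8-fold at 20 h (log2 6.44, SE 0.47, adjusted p = 5.42e-18). Marco in Ahr-/- BMMs went from 12.3, 21.5, 15.2 and 15.9 CPM to 2603, 2726, 1276 and 1099 CPM at 20 h, with replicates 1 and 2 above 3 and 4 after activation. That rise was 120-fold (log2 6.90, SE 0.48, adjusted p = 9.86e-19), with log2 values of 7.32 for replicates 1 and 2 and 6.26 for replicates 3 and 4 of this genotype, and at 3 h it was 4.56-fold (SE 0.39 on the log2 scale, adjusted p = 2.07e-06). The unactivated level in Ahr+/+ BMMs was itself lower at 20 h than at 3 h (log2 -1.86, SE 0.39, adjusted p = 6.27e-04), a call that was lost without replicate 3 of the unactivated 3 h group (log2 -1.45, adjusted p = 0.0124).

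Olr1 (ENSMUSG00000030162.14, chromosome 6, 129485244 to 129507165, minus strand) was nearly silent in unactivated cells, with 0.584, 0.728, 0.690 and 0.379 CPM in Ahr+/+ BMMs at 3 h. With hk S.E. for 3 h it reached 40.3, 41.9, 60.7 and 45.4 CPM in Ahr+/+ and 45.5, 63.8, 77.5 and 78.7 CPM in Ahr-/- BMMs. This was 76.4-fold (log2 6.25, SE 0.32, adjusted p = 3.74e-24) and 82.7-fold (log2 6.37, SE 0.31, adjusted p = 2.81e-25). By 20 h of hk S.E. the level was down to 1.93, 1.01, 1.79 and 1.13 CPM in Ahr+/+ and 3.70, 3.49, 3.97 and 4.93 CPM in Ahr-/- BMMs, still above the unactivated libraries, which lay between 0 and 0.571 CPM. The response of Olr1 at 20 h minus that at 3 h was -3.81 (SE 0.52, adjusted p = 7.57e-09) in Ahr+/+ and -3.21 (SE 0.50, adjusted p = 2.01e-07) in Ahr-/- BMMs on the log2 scale.

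The sequences before the starts of Marco and Olr1, the members with the largest rises, are shown as read from RefSeq on GRCm38. Each is the 250 bases before the annotated start on the strand of the gene, in lower case, with matches to the motifs searched in capitals, which are an NF-kB type match in Marco and an AP-1 match in Olr1.
Marco, chr1:120505025-120505274, minus strand: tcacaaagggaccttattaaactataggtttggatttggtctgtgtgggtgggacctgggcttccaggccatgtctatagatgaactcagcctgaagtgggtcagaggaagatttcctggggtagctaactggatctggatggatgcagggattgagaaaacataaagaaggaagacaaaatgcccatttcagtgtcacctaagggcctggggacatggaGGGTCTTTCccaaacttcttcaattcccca
Olr1, chr6:129507166-129507415, minus strand: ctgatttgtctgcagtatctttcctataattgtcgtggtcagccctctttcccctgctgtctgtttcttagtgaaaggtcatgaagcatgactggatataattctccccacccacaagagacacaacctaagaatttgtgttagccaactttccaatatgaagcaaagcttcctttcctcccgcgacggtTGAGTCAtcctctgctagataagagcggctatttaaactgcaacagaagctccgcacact
A promoter was listed for 7 of the 10 members, all but Msr1, Scarb1 and Cd14. Searched on both strands were AHRE I (GCGTG), RelB AHRE (GGGTGCAT), an NF-kB type motif (GGGNNTTTC), AP-1 (TGANTCA) and a PU.1 type motif (GAGGAAGT), and no matches of different motifs overlapped in these windows. The match in Marco, GGGTCTTTC, ran from 30 to 22 bases before the start, and the match in Olr1, TGAGTCA, from 60 to 54 bases before it. Cd68 held 2 AP-1 matches, and Cd36, Mrc1, Scarb2 and Stab1 held none of the 5 motifs in these windows. The RefSeq starts of Cd36 (17835896) and Scarb2 (92505657) lie inside the gene spans used for counting, which begin at 17888801 and 92506833 on the minus strand. Sequence before these outer starts was not searched. Among all 32851 promoters of the same length, 28.2% held the AHRE I letters, 0.463% RelB AHRE, 3.72% the NF-kB type, 6.75% AP-1 and 2.44% the PU.1 type. A match describes letters and was not tested for binding.

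Msr1 (ENSMUSG00000025044.16, chromosome 8, 39581685 to 39642673, minus strand), which encodes the class A receptor first described for acetylated LDL, rose at both times. In Ahr+/+ BMMs it went from 320, 351, 286 and 359 CPM to 995, 1176, 970 and 1047 CPM at 3 h, and from 208, 197, 231 and 207 CPM to 812, 884, 698 and 716 CPM at 20 h. The groups did not overlap at either time. The rises were 3.18-fold (log2 1.67, SE 0.12, adjusted p = 1.02e-18) and 3.69-fold (log2 1.88, SE 0.12, adjusted p = 1.00e-20) in Ahr+/+ BMMs, and 3.79-fold and 3.63-fold in Ahr-/- BMMs. The difference between the times was 0.21 on the log2 scale in Ahr+/+ BMMs, with a 95% interval from -0.11 to 0.53, and it was 0.52 (adjusted p = 0.00377) with library size alone.

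Cd14 (ENSMUSG00000051439.7, chromosome 18, 36725067 to 36726798, minus strand) also rose at both times. Unactivated Ahr+/+ BMMs had 835, 978, 1012 and 996 CPM at 3 h, and activated ones 2890, 3008, 3315 and 2809 CPM. At 20 h the values were 655, 692, 820 and 846 CPM without and 1525, 1560, 1632 and 1645 CPM with hk S.E., again with no overlap. The rises were 3.15-fold (log2 1.65, SE 0.13, adjusted p = 5.39e-17) and 2.11-fold (log2 1.08, SE 0.13, adjusted p = 7.27e-11), and in Ahr-/- BMMs 3.64-fold and 2.31-fold.

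Mrc1 (ENSMUSG00000026712.3, chromosome 2, 14229392 to 14332057, plus strand) showed the largest fall. At 3 h, unactivated Ahr+/+ BMMs had 66.0, 72.4, 36.4 and 70.8 CPM and activated ones 56.7, 74.9, 40.4 and 60.9 CPM, ranges that overlapped (log2 fold change -0.08, SE 0.19, adjusted p = 0.751). This depends on the scaling, since with library size alone Mrc1 was called lower at 3 h, at -0.75 in Ahr+/+ (adjusted p = 3.69e-04) and -0.94 in Ahr-/- BMMs (adjusted p = 2.52e-05). At 20 h, unactivated Ahr+/+ BMMs had 178, 230, 198 and 190 CPM and activated ones 1.03, 1.79, 1.01 and 1.09 CPM. The fall was 163-fold (log2 -7.35, SE 0.27, adjusted p = 7.36e-31) in Ahr+/+ BMMs and 253-fold (log2 -7.98, SE 0.29, adjusted p = 8.56e-31) in Ahr-/- BMMs, where the activated libraries had 0.412, 0.187, 0.626 and 0.478 CPM. The unactivated level itself rose from 3 h to 20 h, 3.24-fold in Ahr+/+ (adjusted p = 6.67e-09) and 4.34-fold in Ahr-/- BMMs (adjusted p = 3.26e-11), while between activated groups Mrc1 fell 47.7-fold and 48.5-fold.

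Cd36 (ENSMUSG00000002944.15, chromosome 5, 17781690 to 17888801, minus strand), a receptor for oxidized LDL and long-chain fatty acids, also fell with hk S.E. at 20 h, on a smaller scale. Unlike Mrc1, Cd36 was not called between unactivated cells at 20 h and 3 h in either genotype. Activated Ahr+/+ BMMs had 585, 750, 580 and 631 CPM at 3 h, within the range of the unactivated libraries of 435 to 800 CPM, and in Ahr-/- BMMs the log2 fold change of -0.09 at 3 h was -0.76 and called with library size alone (adjusted p = 0.00476). At 20 h activated Ahr+/+ BMMs had 138, 162, 131 and 120 CPM against 683, 774, 745 and 647 CPM without hk S.E. This was a 5.18-fold fall (log2 -2.37, SE 0.26, adjusted p = 7.71e-12), and in Ahr-/- BMMs the fall was 7.32-fold (log2 -2.87, SE 0.26, adjusted p = 3.21e-14). Over the 16 group means of log2 CPM, Cd36 and Mrc1 had a Pearson r of 0.984, the highest of any 2 members, a description over groups that share activation and time.

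Cd68 (ENSMUSG00000018774.13, chromosome 11, 69664213 to 69666153, minus strand) fell at 20 h as well. Ahr+/+ BMMs had 1759, 1660, 1924 and 1833 CPM without and 1058, 865, 947 and 1114 CPM with hk S.E. at 20 h, a 1.80-fold fall (log2 -0.85, SE 0.12, adjusted p = 7.85e-09). Ahr-/- BMMs went from 2061, 1942, 1573 and 1514 to 677, 595, 573 and 624 CPM, a 2.87-fold fall (log2 -1.52, SE 0.12, adjusted p = 1.07e-16). At 3 h the change was 0.13 and 0.11 on the log2 scale, neither of which passed the test, and with library size alone these 3 h values were -0.55 and -0.56, both called.

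Stab1 (ENSMUSG00000042286.13, chromosome 14, 31139013 to 31168641, minus strand) and Scarb1 (ENSMUSG00000037936.15, chromosome 5, 125277087 to 125341094, minus strand), the receptor for HDL, fell within 3 h. Stab1 went from 257, 284, 283 and 289 to 152, 162, 148 and 156 CPM in Ahr+/+ BMMs at 3 h, a 1.80-fold fall (log2 -0.85, SE 0.14, adjusted p = 2.91e-07), and at 20 h the fall was 2.03-fold (log2 -1.02, SE 0.14). Scarb1 went from 86.8, 78.1, 86.3 and 96.1 to 54.1, 53.6, 54.8 and 57.9 CPM at 3 h, a 1.57-fold fall (log2 -0.66, SE 0.09, adjusted p = 2.33e-09), and fell 1.98-fold at 20 h (log2 -0.99, SE 0.09). In none of these did the activated and unactivated libraries overlap. In Ahr-/- BMMs the falls at 3 h and 20 h were 1.99-fold and 1.6-fold for Stab1 and 1.54-fold and 1.67-fold for Scarb1.

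Scarb2 (ENSMUSG00000029426.8, chromosome 5, 92441314 to 92506833, minus strand), which encodes the lysosomal membrane protein LIMP-2, moved least. In Ahr+/+ BMMs it went from 262, 257, 238 and 251 to 288, 305, 289 and 294 CPM at 3 h (log2 0.22, SE 0.07, adjusted p = 0.00369) and from 233, 242, 227 and 230 to 290, 295, 260 and 302 CPM at 20 h (log2 0.30, SE 0.07, adjusted p = 1.20e-04). In Ahr-/- BMMs it fell at 20 h, from 240, 249, 270 and 270 to 204, 181, 208 and 201 CPM (log2 -0.37, SE 0.07, adjusted p = 3.70e-06). The direction in Ahr+/+ BMMs depends on the scaling, since with library size alone the values were -0.45 at 3 h and -0.07 at 20 h, while the fall in Ahr-/- BMMs kept its sign. The 3 h call was lost without replicate 3 of the unactivated group (log2 0.19, adjusted p = 0.0199) and without the filter on low counts (adjusted p = 0.0263).

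Whether the response to hk S.E. differed between the genotypes was tested as an interaction. At 3 h none of the 10 differed (0.0138% of all genes were called), none had an unadjusted p below 0.05, and DESeq2 called none. At 20 h 2 of 10 differed, Scarb2 and Cd68, where 4.41% of all genes were called. For Scarb2 the log2 response in Ahr-/- minus that in Ahr+/+ BMMs was -0.67 (95% interval -0.86 to -0.48, adjusted p = 3.00e-06), the genotypes having moved in opposite directions. With library size alone both changes of Scarb2 were below 0. For Cd68 the difference was -0.67 as well (95% interval -1.0 to -0.34, adjusted p = 0.00478). The Scarb2 difference was -0.70 with replicates 3 and 4 of the Ahr-/- groups only and -0.65 with replicates 1 and 2 only, both called. The Cd68 difference was -0.52 (adjusted p = 0.0113) and -0.81 (adjusted p = 6.77e-04), and it lost its call in 8 of 16 fits without 1 library, at adjusted p from 0.0103 to 0.0160, in the fit of the groups compared only (adjusted p = 0.0133) and with a term for the library identifier series (adjusted p = 0.0249). The 8 fits were those without replicates 1 and 2 of unactivated and 1 and 4 of activated Ahr+/+, and without replicates 1 and 2 of unactivated and 2 and 3 of activated Ahr-/- BMMs. Of the members not called, Mrc1 had a difference of -0.63 (95% interval -1.43 to 0.16), Cd36 -0.50 (-1.20 to 0.20), Marco 0.46 (-0.61 to 1.54) and Olr1 0.72 (-0.34 to 1.78).

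The direct comparison of Ahr-/- with Ahr+/+ BMMs after DMSO asked which receptors depended on the genotype without added ligand. Mrc1 was lower in Ahr-/- BMMs in all 4 conditions. Unactivated Ahr-/- BMMs had 34.7, 18.3, 24.5 and 24.6 CPM at 3 h and 114, 99.1, 123 and 106 CPM at 20 h, and activated ones 24.2, 17.5, 21.4 and 22 CPM at 3 h. None of these Ahr-/- libraries reached the lowest Ahr+/+ library of its condition, and the same held for the activated libraries at 20 h. The level was 2.41-fold lower in unactivated BMMs at 3 h (log2 -1.27, SE 0.20, adjusted p = 3.86e-05), 1.80-fold lower at 20 h (log2 -0.85, SE 0.19, adjusted p = 0.00773), 2.74-fold lower after 3 h of hk S.E. (log2 -1.46, SE 0.20, adjusted p = 3.73e-06) and 2.79-fold lower after 20 h (log2 -1.48, SE 0.34, adjusted p = 0.00111). With replicates 1 and 2 of the Ahr-/- groups only, the values were -1.21, -0.89, -1.5 and -1.96, and with replicates 3 and 4 only -1.33, -0.79, -1.43 and -1.19. The calls at 3 h held in both. In unactivated cells at 20 h replicates 1 and 2 gave an adjusted p of 0.0252 and replicates 3 and 4 of 0.00172, and in activated cells at 20 h the adjusted p were 0.0166 and 0.0427. The call in unactivated cells at 20 h was also lost in each of the 8 fits without 1 library, at adjusted p from 0.0125 to 0.0434, and that in activated cells at 20 h without replicate 2 of Ahr+/+, which had 1.79 CPM (log2 -1.26, adjusted p = 0.0111). At 20 h of hk S.E. the counts behind Mrc1 after DMSO were low, down to 5 in the Ahr-/- library with the fewest.

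In unactivated BMMs, 2 of 10 members were called at 3 h (1.21% of all genes), namely Mrc1 and Msr1, and 2 at 20 h (0.702% of all genes), namely Mrc1 and Scarb1. Msr1 had 266, 179, 233 and 237 CPM in Ahr-/- against 286 to 359 CPM in Ahr+/+ BMMs at 3 h, 1.44-fold lower (log2 -0.52, SE 0.11, adjusted p = 0.00401). It was below Ahr+/+ in the other 3 conditions too, at log2 values of -0.36, -0.27 and -0.38, without passing the test. The Msr1 call was lost in 5 of 8 fits without 1 library, at adjusted p up to 0.0559, which were those without replicates 1, 2 and 4 of Ahr+/+ and 2 and 3 of Ahr-/- BMMs. Scarb1 had 70.8, 60.3, 61.0 and 59.7 CPM in Ahr-/- against 74.1 to 88.9 CPM in Ahr+/+ BMMs at 20 h, 1.31-fold lower (log2 -0.39, SE 0.09, adjusted p = 0.00521). This call was lost in 6 of 8 such fits, all but those without replicate 3 of Ahr+/+ and replicate 1 of Ahr-/-, at adjusted p up to 0.0413, and with replicates 1 and 2 of Ahr-/- only (adjusted p = 0.0478).

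After hk S.E., 1 of 10 was called at 3 h (2.83% of all genes), Mrc1, and 5 of 10 at 20 h (12.5% of all genes), namely Mrc1, Cd36, Scarb2 and Cd68 as lower and Olr1 as higher in Ahr-/- BMMs. Cd68 had 573 to 677 CPM in Ahr-/- against 865 to 1114 CPM in Ahr+/+ BMMs, 1.61-fold lower (log2 -0.69, SE 0.12, adjusted p = 1.33e-05). Scarb2 had 181 to 208 against 260 to 302 CPM, 1.44-fold lower (log2 -0.53, SE 0.07, adjusted p = 4.75e-08). Olr1 had 3.49 to 4.93 against 1.01 to 1.93 CPM, 2.82-fold higher (log2 1.5, SE 0.29, adjusted p = 8.74e-05). These 3 groups did not overlap, and all 3 calls held with each pair of Ahr-/- replicates. Cd36 had 56.4, 54.5, 104 and 89.8 CPM against 120 to 162 CPM, 1.81-fold lower (log2 -0.85, SE 0.25, adjusted p = 0.00949). Its log2 value was -1.31 with replicates 1 and 2 and -0.51 with replicates 3 and 4 of Ahr-/- only, both called, and lost its call in 7 of 8 fits without 1 library, all but that without replicate 3 of Ahr-/-, at adjusted p from 0.0104 to 0.0554. Marco had 2603 and 2726 CPM in replicates 1 and 2 but 1276 and 1099 CPM in replicates 3 and 4 of Ahr-/- BMMs, against 752 to 1640 CPM in Ahr+/+. Its log2 difference was 0.76 (SE 0.37, adjusted p = 0.145) over all libraries, 1.23 (adjusted p = 0.0135) with replicates 1 and 2 and 0.06 (adjusted p = 0.922) with replicates 3 and 4. Msr1 lay at -0.38 with an adjusted p of 0.0109, and passed the threshold without replicate 3 of Ahr+/+ (adjusted p = 0.00811) or of Ahr-/- BMMs (adjusted p = 0.00235), in the deposited VST values tested with limma (adjusted p = 0.00741), with DESeq2 (adjusted p = 0.0046) and with relative log expression factors (adjusted p = 0.00835). The Msr1 value was -0.57 with replicates 1 and 2 of Ahr-/- only (adjusted p = 5.11e-04) and -0.22 with replicates 3 and 4 (adjusted p = 0.0824). With replicates 3 and 4 of Ahr-/- only, Stab1 was also called lower in unactivated cells at both times and in activated cells at 3 h (log2 -0.48, -0.57 and -0.69) and Scarb2 higher in unactivated cells at 20 h (log2 0.21, adjusted p = 0.00656), and with replicates 1 and 2 only Cd36 and Cd14 were called in activated cells at 3 h (log2 -0.91 and 0.47). Of the 10 calls between the genotypes, fits of the groups compared only did not make those of Mrc1 in unactivated cells at 3 h (adjusted p = 0.042) and 20 h (0.0128) and in activated cells at 20 h (0.0199), Msr1 (0.109), Scarb1 (0.142) and Cd36 (0.0291). With a term for the library identifier series those of Mrc1 in unactivated cells at 20 h (adjusted p = 0.014), Msr1 (0.0151), Scarb1 (0.124), Olr1 (0.04) and Cd68 (0.0152) were not made. All Ahr-/- libraries at 20 h shared an identifier series, and all activated Ahr+/+ libraries at 20 h shared another. Genotype and series therefore cannot be told apart within the comparison after 20 h of hk S.E. The labels do not say what a series stands for.

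**Figure D4:**
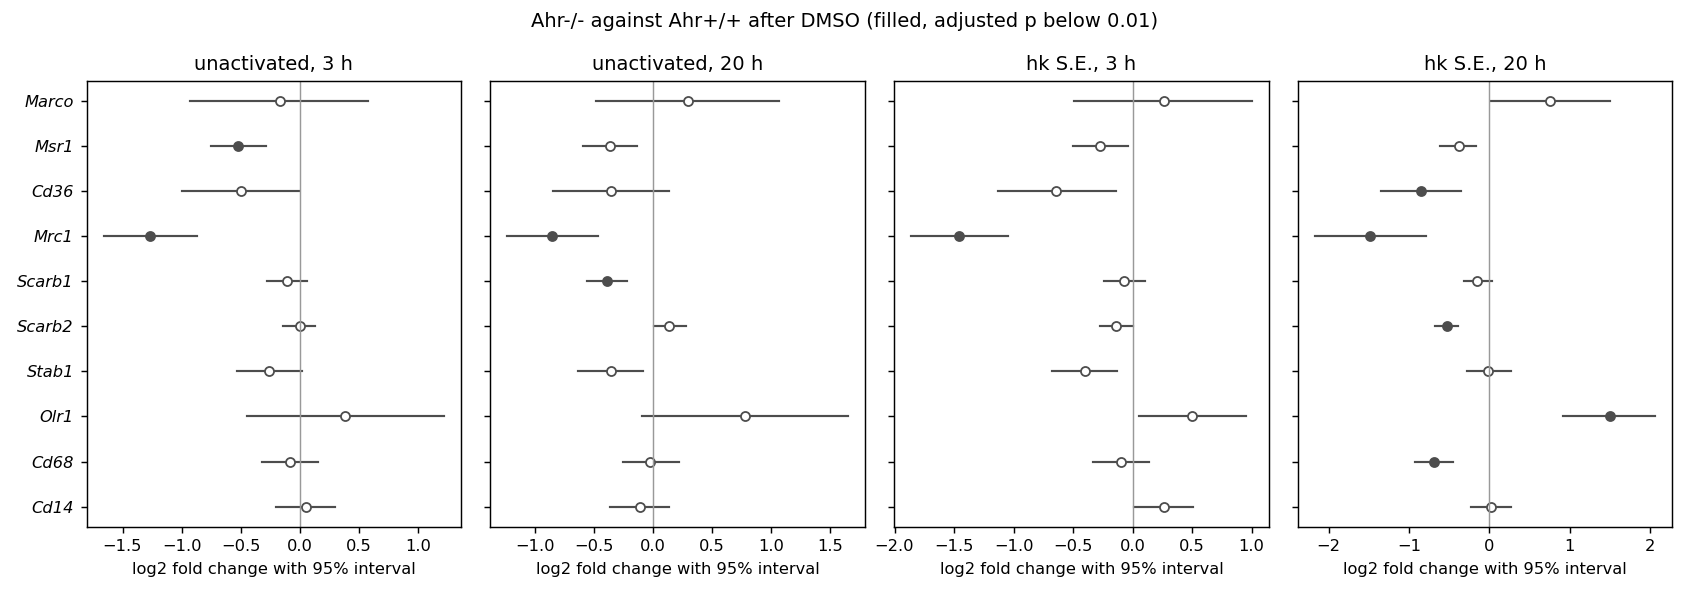
Log2 fold change of each gene in Ahr-/- against Ahr+/+ BMMs after DMSO, in unactivated and activated cells at 3 h and 20 h, with bars for the 95% interval from the SE filled points where the adjusted p was below 0.01, and a separate x axis range in each panel. Mrc1 lay between -0.85 and -1.48 in the 4 conditions, and Olr1 was the only member called higher, at 1.5 after 20 h of hk S.E.

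The course from 3 h to 20 h differed between unactivated and activated cells. In unactivated Ahr+/+ BMMs 4 of 10 changed (6.07% of all genes), with Mrc1 and Stab1 higher and Marco and Msr1 lower at 20 h. In unactivated Ahr-/- BMMs 5 of 10 changed (6.98% of all genes), with Mrc1 and Stab1 higher and Msr1, Scarb1 and Cd14 lower. Cd14 was lower in unactivated Ahr+/+ BMMs too, at log2 -0.34, without a call (adjusted p = 0.065). That Ahr+/+ value was the same and called with replicates 3 and 4 or 1 and 2 of Ahr-/- only (adjusted p = 0.00156 and 0.00826). Stab1 reached 417, 549, 406 and 431 CPM in unactivated Ahr+/+ BMMs at 20 h, 1.62-fold the level at 3 h (log2 0.70, SE 0.14, adjusted p = 2.35e-04), and in Ahr-/- BMMs it rose 1.51-fold. In unactivated Ahr-/- BMMs 4 of these calls were lost in fits without 1 library, each of them without replicate 2 at 20 h. Further losses came for Msr1 without replicates 1 or 4 at 3 h (log2 -0.46 to -0.38, adjusted p up to 0.0302), and for Scarb1 without replicates 2 or 4 at 3 h or 4 at 20 h (log2 -0.34 to -0.28, adjusted p up to 0.0280). They came for Stab1 without replicates 3 or 4 at 3 h (log2 0.42 to 0.54, adjusted p up to 0.0352), and for Cd14 without replicate 2 at 3 h or 1 at 20 h (log2 -0.47 to -0.40, adjusted p up to 0.0337). Marco, at -1.39 with an adjusted p of 0.0107, passed without replicate 1 at 3 h (log2 -1.63, adjusted p = 0.00289) and with DESeq2 (adjusted p = 0.00439). With replicates 3 and 4 of Ahr-/- only, the log2 values were -0.23 for Cd14 (adjusted p = 0.206) and -0.38 for Msr1 (adjusted p = 0.0182), and Marco (-1.83, adjusted p = 0.00674) and Cd36 (0.65, adjusted p = 0.00543) were called. With replicates 1 and 2 only, Scarb1 was at -0.29 (adjusted p = 0.0826). In unactivated Ahr-/- BMMs, fits of the groups compared only did not call Msr1 (adjusted p = 0.113), Scarb1 (0.11), Stab1 (0.114) or Cd14 (0.0447). A term for the library identifier series lost the calls of Scarb1 (adjusted p = 0.0927), Stab1 (0.0273) and Cd14 (0.0619).

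Among activated cells 9 of 10 members changed in Ahr+/+ (59.5% of all genes) and 10 of 10 in Ahr-/- BMMs (56% of all genes). Marco and Stab1 were higher at 20 h in both genotypes, Marco by 7.09-fold and 10.1-fold and Stab1 by 1.43-fold and 1.89-fold. The Stab1 call in Ahr+/+ was lost without replicate 3 at 3 h (log2 0.42, adjusted p = 0.0111). Msr1, Cd36, Mrc1, Scarb1, Olr1, Cd68 and Cd14 were lower in both, among them Olr1 by 32.7-fold and 16.3-fold and Cd14 by 1.89-fold and 2.24-fold. Scarb2 was lower in Ahr-/- (log2 -0.43, adjusted p = 2.10e-07), with -0.04 in Ahr+/+ BMMs. Several of these calls depend on the scaling. Library size alone moved the median of all genes by 0.33 in Ahr+/+ and 0.37 in Ahr-/- BMMs, and the split of members from 2 higher and 7 lower to 3 and 5 in Ahr+/+ and from 2 and 8 to 2 and 5 in Ahr-/- BMMs, with 44.4% of all genes higher and 18.5% lower, and 46.9% and 16.6%. The falls of Msr1 were then -0.10 and -0.17 in place of -0.43 and -0.54 and those of Scarb1 -0.07 and -0.11 in place of -0.40 and -0.48, none of them called (adjusted p from 0.161 to 0.459). Scarb2 was then at -0.06 in Ahr-/- (adjusted p = 0.428) and called higher in Ahr+/+ BMMs, at 0.29 (adjusted p = 1.78e-04).

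Tested directly, the response to hk S.E. differed between 20 h and 3 h for 6 of 10 members in Ahr+/+ (47.8% of all genes) and for 7 of 10 in Ahr-/- BMMs (44.7% of all genes). Marco responded more at 20 h, with differences of 4.68 (SE 0.56, adjusted p = 1.98e-10) and 4.72 (SE 0.56, adjusted p = 2.00e-10). The difference was below 0 in both genotypes for Mrc1 (-7.27, SE 0.32, and -7.72, SE 0.35), Cd36 (-2.42 and -2.78, both SE 0.35), Olr1, Cd68 (-0.97 and -1.63, both SE 0.17) and Cd14 (-0.58 and -0.66, both SE 0.18) on the log2 scale. Scarb2 was the further member in Ahr-/- BMMs, at -0.46 (SE 0.10, adjusted p = 4.84e-05). With library size alone, which moved the median of all genes by 0.31 and 0.36, neither the Cd14 differences (-0.27 and -0.30, adjusted p = 0.176 and 0.135) nor that of Scarb2 in Ahr-/- BMMs (-0.10, adjusted p = 0.396) were called, whereas Msr1 (0.52) and Scarb2 (0.38) in Ahr+/+ and Stab1 (0.68) in Ahr-/- BMMs were. With replicates 1 and 2 of Ahr-/- only, the Ahr-/- differences of Olr1 (-2.32, adjusted p = 0.0508) and Cd14 (-0.48, adjusted p = 0.0347) were not called. Cd14 lost its Ahr+/+ call without replicate 1 of unactivated cells at 3 h or replicates 3 or 4 at 20 h (log2 -0.53 to -0.51, adjusted p up to 0.0155), and with a term for the library identifier series (adjusted p = 0.011). Scarb1, at -0.33 with an adjusted p of 0.0169 in Ahr+/+, passed without any 1 of the 4 activated libraries at 3 h, without replicate 4 of unactivated cells at 3 h or without replicate 3 at 20 h (log2 -0.42 to -0.38, adjusted p from 0.00277 to 0.00871), and with DESeq2 (adjusted p = 0.00171) and limma (adjusted p = 0.00304).

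The AhR ligands were compared with DMSO in activated BMMs. No member was called in any of the 8 comparisons, where 0.0482% of all genes were called with BaP at 3 h and 0.234% at 20 h in Ahr+/+ BMMs, 0.131% and 0.509% with I3C, and 0.0275%, 0.0138%, 0.0206% and 0.206% in the same order in Ahr-/- BMMs. Of the 80 values, 2 had an unadjusted p below 0.05, and neither DESeq2 nor limma on the deposited VST values called any. For 9 of the 10 members all 8 fold changes lay between -0.29 and 0.44 on the log2 scale, and Mrc1 went below this range after 20 h in Ahr-/- BMMs. Here Mrc1 had 0.391, 0.0708, 0.247 and 0.147 CPM after I3C against 0.412, 0.187, 0.626 and 0.478 CPM after DMSO, lower in 4 of 4 replicate numbers but with ranges that overlap (log2 -1.09, 95% interval -2.05 to -0.13, unadjusted p = 0.0275, adjusted p = 0.902), and -0.55 after BaP (95% interval -1.40 to 0.31).

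Msr1 was the other member with an unadjusted p below 0.05. In Ahr+/+ BMMs after 20 h it had 921, 1085, 1022 and 1010 CPM with BaP against 812, 884, 698 and 716 CPM with DMSO, higher in 4 of 4 replicate numbers and with no overlap. The difference was 1.30-fold (log2 0.38, SE 0.11, unadjusted p = 0.00168) and failed the adjustment over all genes (adjusted p = 0.111). The estimate of spread is shared over all libraries, those of Ahr-/- included. With replicates 3 and 4 of Ahr-/- only, Msr1 was called at the same log2 value (unadjusted p = 2.00e-05, adjusted p = 0.00231). With replicates 1 and 2 of Ahr-/- only it was not called. With I3C Msr1 had 875, 935, 920 and 851 CPM, also higher in 4 of 4 (log2 0.20, 95% interval -0.02 to 0.43, adjusted p = 1). In Ahr-/- BMMs the values were 433, 604, 647 and 585 CPM with BaP and 517, 527, 715 and 623 CPM with DMSO (log2 -0.07). At 3 h they had 809, 774, 765 and 797 CPM with BaP and 895, 870, 894 and 810 CPM with DMSO, lower in 4 of 4 with no overlap (log2 -0.14, adjusted p = 0.8). The difference of the BaP effects between the genotypes at 20 h was -0.45 (95% interval -0.77 to -0.12, unadjusted p = 0.00746, adjusted p = 0.715).

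Ligand effects did not pass the test of a difference between the genotypes for any member, 1 of 40 values having an unadjusted p below 0.05, where 0.0138% of all genes were called for BaP at 3 h and 0% for BaP at 20 h and for I3C at 3 h and 20 h. The widths of the intervals differed by gene. For Scarb2 all 8 ligand effects were between -0.08 and 0.08 with an SE of 0.07, and for Cd68 between -0.01 and 0.17 with an SE of 0.12. For Marco they lay between -0.23 and 0.26 with an SE of 0.37, and their 95% intervals reached from -0.97 to 1.01. For Cd14, the ligand effects lay between -0.15 and 0.13 (SE 0.12).

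**Figure D5:**
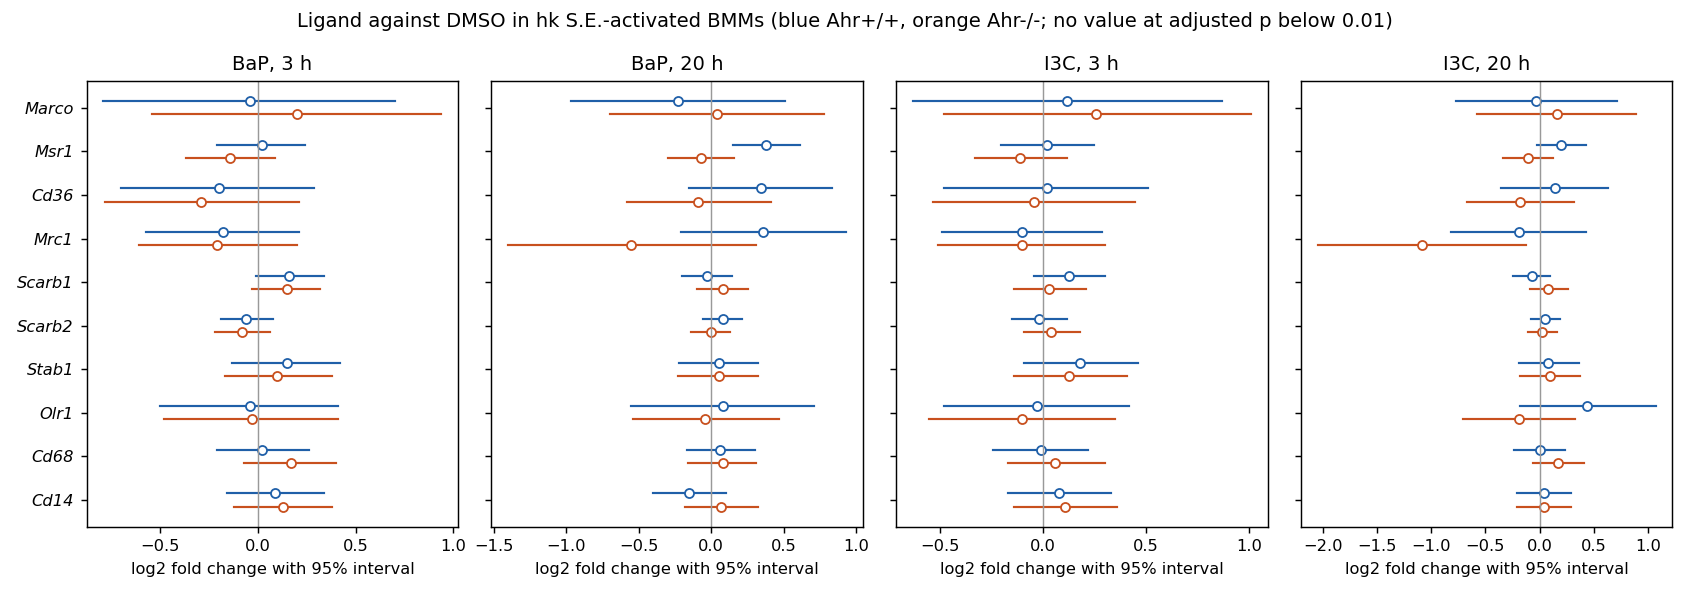
Log2 fold change of each gene with BaP or I3C against DMSO in activated BMMs at 3 h and 20 h, with bars for the 95% interval from the SE, Ahr+/+ in blue and Ahr-/- in orange. No value passed the test, and the points lie between -1.09 and 0.44.

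Other receptors of these classes were read from a list of 13 genes, of which 8 passed the filter and Scara3, Scara5, Megf10, Cd163 and Lrp2 did not. With hk S.E., 3 of 8 were called higher and 2 lower in Ahr+/+ BMMs at 3 h, and 1 higher and 4 lower at 20 h. The Ahr-/- counts were 3 higher and 5 lower at 3 h, then 1 higher and 4 lower at 20 h. The shares over all genes were 24.2% higher and 32.3% lower at 3 h and 29.9% and 28.7% at 20 h in Ahr+/+, and 25.5% and 31.8% and then 28.3% and 26% in Ahr-/- BMMs. The medians of the 8 were -0.47, -1.60, -0.56 and -1.52 in that order, beside -0.10, -0.00, -0.08 and 0.02 over all genes. Those with the largest changes at 20 h in Ahr+/+ BMMs were Stab2, a relative of stabilin-1 with a level of 3.06 CPM in unactivated cells, at -8.00, the beta-glucan receptor Clec7a at -4.44, the collectin Colec12 at -2.90 and the endocytic receptor Lrp1 at -2.20, with adjusted p of 7.05e-16, 1.74e-25, 5.22e-22 and 1.45e-21. Stab2 was at 0.0112 CPM in activated cells, where its fitted value depends on the prior count. At 3 h in Ahr+/+ BMMs the named genes were Cd44 at 1.64, Cxcl16 at 1.55, Scarf1 at 1.24 and Ager, at 0.579 CPM in unactivated cells, at -1.66. Between the genotypes Cxcl16, a membrane-bound chemokine that binds oxidized LDL, was called at 20 h of hk S.E., at -0.39 (SE 0.08, adjusted p = 3.82e-04), and its response to hk S.E. was lower by 0.59 (SE 0.12, adjusted p = 4.14e-04).

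All 12 genes of the lipopolysaccharide receptor complex and its adapters were tested. With hk S.E. at 3 h in Ahr+/+ BMMs 9 were called higher and 1 lower (median 0.68), led by Tlr2 at 3.64, the adapter Myd88 at 2.63, Tlr1 at 2.40 and Tlr6 at 1.35, and at 20 h 6 higher and 4 lower (median 0.50). The Ahr-/- counts were 7 and 1 at 3 h (median 0.85) and 6 and 3 at 20 h (median 0.52). Over all genes 24.2% and 25.5% were higher and 32.3% and 31.8% lower at 3 h in Ahr+/+ and Ahr-/- BMMs, and 29.9% and 28.3% higher and 28.7% and 26% lower at 20 h. The mean of Tlr4 was lower with hk S.E. than without in both genotypes. At 3 h it was 29.5 against 65.3 CPM in Ahr+/+ and 27 against 67.4 CPM in Ahr-/- BMMs. At 20 h it was 22.3 against 52.5 CPM and 38.2 against 61.8 CPM. Between the genotypes at 20 h of hk S.E. the adapters Ticam1 (-0.65, SE 0.14) and Ticam2 (-0.46, SE 0.12) were lower and Tlr2 (0.40, SE 0.09) was higher in Ahr-/- BMMs, while after 3 h Ticam2 was higher (0.56, SE 0.12), and at 20 h the response of Ticam2 (-0.86, SE 0.17) and of Ly86, the partner of Cd180 (-0.80, SE 0.21), was lower. Cd14 was not called at 20 h in the level or in the response, at 0.02 (95% interval -0.23 to 0.27) and 0.13 (-0.22 to 0.48).

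All 18 genes of lipid handling were tested, and with hk S.E. 4 were called higher and 9 lower at 3 h in both genotypes (medians -0.36 and -0.42), while at 20 h 6 were higher and 6 lower in Ahr+/+ (median -0.05) and 4 higher and 9 lower in Ahr-/- BMMs (median -0.55). The medians over all genes were -0.10 and -0.08 after 3 h, then -0.00 and 0.02 after 20 h, with 24.2% and 25.5% higher and 32.3% and 31.8% lower at 3 h, and 29.9% and 28.3% higher and 28.7% and 26% lower at 20 h. Pparg, a nuclear receptor known to act on Cd36, had a mean of 44.1 CPM in unactivated and 8.13 CPM in activated Ahr+/+ BMMs at 3 h (log2 -2.43, SE 0.16), and 47.2 and 0.962 CPM at 20 h (log2 -5.61, SE 0.20, adjusted p = 1.69e-31). Its partner Rxra fell at 3 h (log2 -2.81, SE 0.10). At 20 h the lipase Lpl (-2.99), the lipoprotein Apoe (-2.50) and the lysosomal lipase Lipa (-2.31) fell as well. Between the genotypes after 20 h of hk S.E., the lipid droplet protein Plin2 (-1.47, SE 0.10), the fatty acid carrier Fabp4 (-1.31, SE 0.21) and the cholesterol carrier Npc2 (-0.76, SE 0.07) were lower in Ahr-/- BMMs, among 4 of 18 called lower, the other being Fabp5 (-0.64, SE 0.17), where 12.5% of all genes were called in either direction. No gene of these 3 lists was called between the genotypes in unactivated cells at either time. Of all genes, only 1.21% were called there at 3 h and 0.702% at 20 h.

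The genes whose group means were most like those of each member over the 16 groups, by Pearson r of log2 CPM, were Saa3 and Aoah for Marco (both 0.990), Slc30a7 and Sec23b for Msr1 (both 0.992), Nes (0.995) and Ctsl (0.992) for Cd36, Emp2 (0.994) and Cdkn3 (0.993) for Mrc1, and Ccdc86 (0.995) and Dcaf13 (0.994) for Olr1. Tmem43 (0.982) and Atp6v0a1 (0.980) were closest to Scarb1, Bcl6 (0.952) and Hmbox1 (0.951) to Scarb2, Hyls1 (0.975) and Tmem242 (0.966) to Stab1, 2010111I01Rik (0.988) and Bcl2l11 (0.987) to Cd68, and Elp5 (0.997) and Txnrd1 (0.993) to Cd14. Among the members themselves, Olr1 and Cd14 had an r of 0.981 and Stab1 and Cd14 one of -0.939. These values describe groups that share time and activation.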

How the data were processed

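RNA of 64 libraries of Ahr+/+ and Ahr-/- BMMs was sequenced, and the authors deposited 1 table of counts per library (read pairs per gene, not normalized) and 1 table of log2 values after the variance-stabilizing transformation (VST) of DESeq2. Per the labels and the methods of the study, demultiplexing with bcl2fastq 2.19.0.316 was followed by alignment to mm10 with HISAT2 2.1.0 and strand-specific counting of exons with HTSeq 0.9.1, where ambiguous pairs were dropped. The 5 entries per library that name no gene were left out, so that 74.9% to 80.8% of all entries were used. Depth ranged from 12152496 to 233047331 counts, with a median of 24499165, which limits precision for Mrc1 and Olr1.

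Counts were fitted with the quasi-likelihood test of edgeR 4.0.16 (R 4.3.3) on all libraries with 1 mean per group and TMM factors, after filterByExpr with a minimum count of 10. Adjusted p are Benjamini-Hochberg values over all 14537 genes tested, called below 0.01. The 95% intervals come from the SE with the residual plus the prior degrees of freedom of the fit. Alternatives were DESeq2 1.42.0, limma 3.58.1 on the VST values, other scalings, no filter, a threshold of 0.05, fits of the groups compared only, a term for the library identifier series, a replicate block and each library left out in turn. The fit was tested on simulated data beforehand. The members and lists were chosen with earlier results of these data known. All 10 members are named, with up to 4 called genes of largest change per comparison from each other list and the 2 genes most alike to each member. Tlr4 was added to these after the data were seen.

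Samples were grouped by the labels, in which groups share replicate numbers. The deviations of same-numbered libraries from their group means correlated with r from 0.252 to 0.643 between ligand and DMSO groups of Ahr-/- (16 of 16 pairs above 0.1), from 0.067 to 0.255 in Ahr+/+ (10 of 16) and from -0.333 to 0.117 between the genotypes (1 of 16). All 4 pairs were above 0.1 in the 4 ligand comparisons and in activation at 20 h and activated cells at 20 h against 3 h of Ahr-/-, and with I3C at 20 h in Ahr+/+, so that the numbers were taken to pair these groups alone. The block changed no call in these comparisons. Promoter sequences are from RefSeq on GRCm38. The values of 1 gene of the lipid handling list are not reported here.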

Additional observations from a re-analysis of the deposited data

Results flagged for a closer look

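In 7 of 160 groups of 4 libraries 1 library lay far from the other 3 by Dixon's criterion, where chance gives about 1 in 20, or 8. Mrc1 was at 12.3 CPM in replicate 2 of Ahr-/- with BaP at 3 h (others 19.9 to 21.0) and at 1.79 CPM in replicate 2 of activated Ahr+/+ with DMSO at 20 h (others 1.01 to 1.09). Scarb1 was at 67.9 CPM in replicate 4 of Ahr+/+ with I3C at 3 h (others 56.5 to 58.4), at 45.7 CPM in replicate 1 of Ahr+/+ with BaP at 20 h (others 38.6 to 39.7) and at 70.8 CPM in replicate 1 of unactivated Ahr-/- at 20 h (others 59.7 to 61.0). Olr1 was at 64.9 CPM in replicate 3 of Ahr+/+ with I3C at 3 h (others 39.1 to 40.8), and Cd68 at 1990 CPM in replicate 2 of unactivated Ahr-/- at 3 h (others 1428 to 1508).

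The response to hk S.E. differed between the genotypes at 20 h for Scarb2 and Cd68 (both -0.67, Ahr-/- minus Ahr+/+ on the log2 scale, by an interaction term). It differed between 20 h and 3 h in Ahr+/+ BMMs for Marco (4.68), Cd36 (-2.42), Mrc1 (-7.27), Olr1 (-3.81), Cd68 (-0.97) and Cd14 (-0.58). In Ahr-/- BMMs it differed for Marco (4.72), Cd36 (-2.78), Mrc1 (-7.72), Scarb2 (-0.46), Olr1 (-3.21), Cd68 (-1.63) and Cd14 (-0.66).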

How the results depend on the processing

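Of 86 calls over the 10 members, 72 were kept in every fit without 1 library, 14 were lost in at least 1 and 3 were gained. Without 1 library the counts of calls ranged from 32 to 33 for activation, 1 to 2 for activation by genotype, 8 to 11 for Ahr-/- against Ahr+/+, 24 to 28 for 20 h against 3 h, 12 to 14 for activation by time and 0 to 0 for both ligand families. Fits of the groups compared only gave 1 call instead of 2 for activation by genotype and 4 instead of 10 for Ahr-/- against Ahr+/+, and have fewer samples. A term for the library identifier series gave 1 and 5. Both settings also lost calls at 20 h against 3 h in unactivated Ahr-/- BMMs. The series overlaps with genotype and time, in part over all groups. Within Ahr-/- against Ahr+/+ after 20 h of hk S.E., and within activated Ahr-/- BMMs at 20 h against 3 h, the overlap is complete. There the series cannot be told apart from genotype or time. With replicates 3 and 4 of Ahr-/- only, activation by genotype gave 1 call and the ligands 1 instead of 0, which was Msr1 with BaP at 20 h in Ahr+/+ BMMs (adjusted p = 0.00231). Its log2 value of 0.38 was that of the main fit. The Ahr-/- libraries enter that comparison only through what the fit shares over libraries, such as the estimate of spread. The cause of these changes was not tested. Scaling to library size alone reversed Scarb2 with activation (-0.45 and -0.07 in Ahr+/+ at 3 h and 20 h, -0.58 in Ahr-/- at 3 h), Cd68 with activation at 3 h (-0.55 and -0.56) and Scarb2 at 20 h against 3 h in activated Ahr+/+ BMMs (0.29). The replicate block lost 0 calls and gained 4, which were Olr1 (adjusted p = 0.00535) and Cd14 (0.00451) at 20 h against 3 h in unactivated Ahr+/+, Marco in unactivated Ahr-/- (3.25e-06) and Scarb1 in activation by time in Ahr+/+ BMMs (0.00701), and with it the counts were 33, 2, 10, 31, 14, 0 and 0. Mrc1 in activated Ahr-/- against Ahr+/+ BMMs at 20 h was not called by limma (adjusted p = 0.0223). Depth limits Mrc1 and Olr1, which had as few as 2 and 0 counts in a library.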
